A study of Mus musculus with 4 samples.

Results

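The transcripts of 10 genes for microtubule-associated proteins (MAPs) of neurons were followed through an anti-YTHDF2 RNA immunoprecipitation (RIP) of newborn mouse retina. The genes were taken by symbol from a table of 52550 genes, with no limit on level or change: *Map1a* and *Map1b*, *Map2*, *Map4* and *Mapt*, *Map6* and *Map7d1*, *Dcx* and *Dclk1*, and *Spast*. All 10 passed the filter on low counts that left 13632 genes to test. The retinas came from wild type C57BL/6 mice on postnatal day 0 and were dissociated with papain. From each of 2 biological replicates, 1 library was made of RNA before the pulldown (input) and 1 of RNA recovered with an antibody against YTHDF2 (RIP), so that all 4 libraries share strain, genotype, tissue and age, and no library differs by a transgene or a drug. How many animals went into a replicate is not given in the sources used here, and a pulldown with control IgG that the methods name was not analysed here.

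YTHDF2 is a cytoplasmic protein that reads N6-methyladenosine (m6A), a methyl mark on adenosines of mRNA, and is known for bringing marked mRNAs to decay. Microtubules are the stiff polymers of tubulin that carry transport in axons and dendrites. Structural MAPs lie along their wall and stabilise or space them, doublecortins do so in young migrating neurons and growing neurites, and spastin cuts them. MAP2 is the classical marker of dendrites and tau that of axons, and newborn retina is a tissue in which ganglion cells are extending both.

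The mark is laid down in a short sequence context whose commonest form in DNA letters is GGACT, and it is known to be dense around stop codons. The longest annotated coding transcript of each of the 10 genes (GENCODE M21, GRCm38) was searched for GGACT on the transcript strand. The motif cannot overlap itself. Each of the 10 held at least 1 copy, as did 93.1% of 11926 tested protein-coding genes. The density ran from 0.214 copies per kb in *Spast* to 2.24 in *Map6*, with a median of 0.888 over the 10 against 1.04 over all. Within 400 bases of the end of the coding sequence, 5 of the 10 had a copy (*Map1a*, *Mapt*, *Map6*, *Map7d1* and *Dclk1*), against 59.5% of all. The copy nearest to that end is shown for 4 genes, because they range from the closest of all 10 to the single copy of *Spast*. The sequences read 5′ to 3′ along the transcript, with GGACT in capitals and 10 bases on either side.

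*Dclk1*, plus strand, chr3:55533670-55533694, motif 54 bases before the end of the coding sequence: cggaatcggaGGACTactcccccag
*Mapt*, plus strand, chr11:104328111-104328135, motif 66 bases before that end: tcgacatggtGGACTcaccacagct
*Map1a*, plus strand, chr2:121308196-121308220, motif 119 bases after it, in the 3′ untranslated region: catgttattgGGACTtggggctaag
*Spast*, plus strand, chr17:74389480-74389504, motif 1178 bases after it, in the 3′ untranslated region: aaatatggctGGACTtttattataa

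These matches describe the sequence and do not show that an adenosine is methylated or bound, which was not measured in these libraries.

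Total counts were between 19530226 and 39499994 per library, of which 2083594 to 4175459 fell on protein-coding genes. The 10 transcripts had from 130 to 2671 counts in a library. Markers of newborn retina were present: 7 of 7 ganglion cell, 7 of 7 progenitor and 4 of 4 photoreceptor precursor markers were detected, while 4 of 4 markers of the pigment epithelium were at 0 in every library. The summed level of the ganglion cell markers was 45.1 to 54.2 CPM (counts divided by the library size times its TMM factor) in the inputs and 25.0 to 27.9 CPM in the RIP libraries. Sums were also lower in the RIP libraries for progenitor markers (191 to 209 CPM, inputs 286 to 367) and for 5 amacrine and horizontal cell markers (36.4 to 39.5 CPM, inputs 59.3 to 91.2). They were higher for photoreceptor precursor markers (95.1 to 106 CPM, inputs 73.2 to 88.4) and for 3 endothelial markers (65.2 to 66.9 CPM, inputs 32.1 to 33.1). The part of these shifts in the values below was not tested.

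None of the 10 MAP transcripts was called enriched in or depleted from the RIP. Their fold changes, RIP over input, ran from 0.700 for *Mapt*, which encodes the axonal protein tau, to 1.80 for *Spast*. By edgeR's quasi-likelihood test over all 13632 genes, 0 of 10 reached a log2 fold change of at least 1 with an unadjusted p below 0.05, against 9.43% of all tested genes, and 0 of 10 reached -1 or lower, against 17.2%. An adjusted p below 0.05 was found for 0 of 10 (13.3% of all) and an unadjusted one for 0 of 10 (29.7% of all). DESeq2 likewise called 0 in each direction at the limits. The lowest unadjusted p was 0.0738 (*Spast*, adjusted p = 0.212). The median log2 fold change of the 10 was 0.33, against -0.05 over all genes tested, and 8 of 10 were above 0, against 48.1% of all. A p above the threshold does not show that the levels were equal. The 95% interval of the log2 fold change stayed within -1 and 1 only for *Map6*. It lay above -1 for 8 of the 10, all but *Map1b* and *Mapt*, and below 1 for 3, namely *Map1b*, *Mapt* and *Map6*. With 2 libraries against 2, the smallest two-sided p of an exact permutation test is 0.333, and these p-values draw on a spread estimated jointly over genes.

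**Figure D1:**
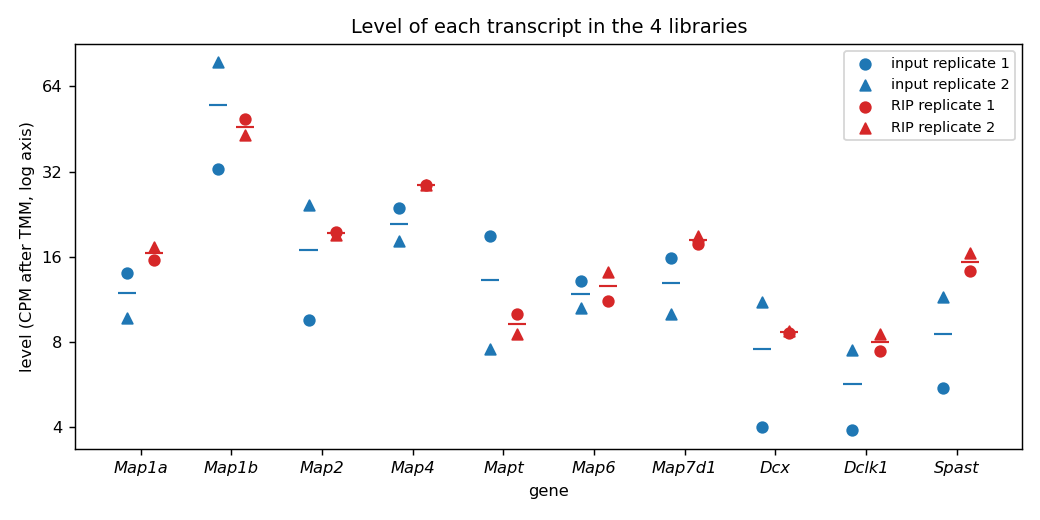
Level of each of the 10 transcripts in each library, in CPM after TMM scaling on a log axis. Blue marks are inputs and red marks RIP libraries, circles replicate 1 and triangles replicate 2, and short lines the means of 2 libraries. For 9 of the 10 genes, all but *Map6*, the blue marks lie further apart than the red ones, as for *Dcx*, whose inputs are at 4.02 and 11.0 CPM and whose RIP libraries are at 8.60 and 8.72 CPM.

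The large MAP1 proteins are made as precursors and split into a heavy and a light chain. *Map1b*, the member expressed early in growing axons, lies on the minus strand of chromosome 13 (99421446 to 99516540, ENSMUSG00000052727). It was the most heavily counted of the 10, with 1086 counts in input replicate 1 and 2671 in input replicate 2, and with 1236 and 1034 in the RIP libraries of the same order. After scaling, the inputs stood at 32.6 and 77.8 CPM and the pulldowns at 49.0 and 43.0 CPM, so that both RIP values fell between the inputs. Its log2 fold change was -0.26 (standard error 0.442, adjusted p = 0.737, edgeR quasi-likelihood). *Map1a*, which takes over in mature neurons, lies on the plus strand of chromosome 2 (121289600 to 121310832, ENSMUSG00000027254). Its inputs were at 14.1 and 9.70 CPM, its RIP libraries at 15.6 and 17.3 CPM. The RIP libraries were both above both inputs, and the log2 fold change was 0.47 (standard error 0.349, edgeR adjusted p = 0.408). *Ppip5k1*, on the opposite strand, overlaps *Map1a* and had 257 counts over the 4 libraries against 1612 for *Map1a*. The libraries were strand-specific by their kit, but the strand setting of the counting is not given in the sources used here, so that reads of the pair may have been mixed.

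*Map2*, *Map4* and *Mapt* encode related proteins that bind microtubules through shared repeats. *Map2* (chromosome 1, 66175273 to 66442583, ENSMUSG00000015222, plus strand) had input counts of 320 and 834 and RIP counts of 496 and 461. On the CPM scale the inputs were at 9.59 and 24.3 and the RIP libraries at 19.6 and 19.2, again between the inputs. The log2 fold change was 0.20 (standard error 0.452, edgeR adjusted p = 0.815). *Mapt* (chromosome 11, 104231390 to 104332090, ENSMUSG00000018411, plus strand) showed the inputs in the other order, at 19.0 and 7.57 CPM, with the RIP libraries at 10.02 and 8.56 CPM between them. It had the lowest log2 fold change of the 10, -0.51 (standard error 0.457, edgeR adjusted p = 0.492). *Map4*, the form found in most cell types, dividing ones included, lies on the plus strand of chromosome 9 (109931460 to 110083955, ENSMUSG00000032479). Its inputs were at 23.7 and 18.2 CPM and its RIP libraries at 28.8 and 28.6 CPM, so that the groups did not overlap. Its log2 fold change was 0.45 (standard error 0.335, edgeR adjusted p = 0.404). The counts are per gene and do not separate the 24, 17 and 12 annotated transcripts of *Map2*, *Map4* and *Mapt*.

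*Map6*, first known as the stable tubule only polypeptide, protects microtubules from cold and drugs. *Map7d1* is a relative of MAP7, which recruits kinesin-1. *Map6* (chromosome 7, 99267447 to 99337137, ENSMUSG00000055407, plus strand) was the most even of the 10, with input levels of 13.1 and 10.6 CPM and RIP levels of 11.2 and 14.1 CPM. The groups overlapped and the log2 fold change was 0.09 (standard error 0.341, 95% interval from -0.68 to 0.87). *Map7d1* (chromosome 4, 126232167 to 126256343, ENSMUSG00000028849, minus strand) had input levels of 15.8 and 10.02 CPM and RIP levels of 17.8 and 18.9 CPM, without overlap. Its log2 fold change was 0.51 (standard error 0.360, edgeR adjusted p = 0.384).

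The doublecortins and spastin had the fewest input counts of the set. *Dcx*, the classical marker of young neurons (chromosome X, 143855842 to 143933311, ENSMUSG00000031285, minus strand), had input counts of 134 and 379 and RIP counts of 217 and 210. The RIP libraries differed by 0.02 on the log2 CPM scale and the inputs by 1.46, with counting errors of 0.140 and 0.145. Its log2 fold change was 0.20 (standard error 0.480, edgeR adjusted p = 0.821). *Dclk1*, which joins a doublecortin domain to a kinase (chromosome 3, 55242364 to 55539068, ENSMUSG00000027797, plus strand), had input counts of 130 and 257 and RIP counts of 188 and 205. Its levels were 3.90 and 7.48 CPM against 7.45 and 8.52 CPM, so that RIP replicate 1 lay just below input replicate 2. Its log2 fold change was 0.49 (standard error 0.414, edgeR adjusted p = 0.471). *Spast*, the severing ATPase mutated in hereditary spastic paraplegia (chromosome 17, 74338987 to 74391115, ENSMUSG00000024068, plus strand), had input counts of 183 and 397 and RIP counts of 359 and 398. At 5.49 and 11.6 CPM the inputs were both below the RIP libraries at 14.2 and 16.5 CPM. Its log2 fold change was 0.85 (standard error 0.418, 95% interval from -0.10 to 1.80), the highest of the 10. The groups did not overlap, RIP above input, for 4 of the 10 (*Map1a*, *Map4*, *Map7d1* and *Spast*), against 29.6% of all tested genes. The opposite order was found for 0 of the 10 (31.3% of all), so that 4 of 10 were without overlap in either direction, against 60.9% of all.

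**Figure D2:**
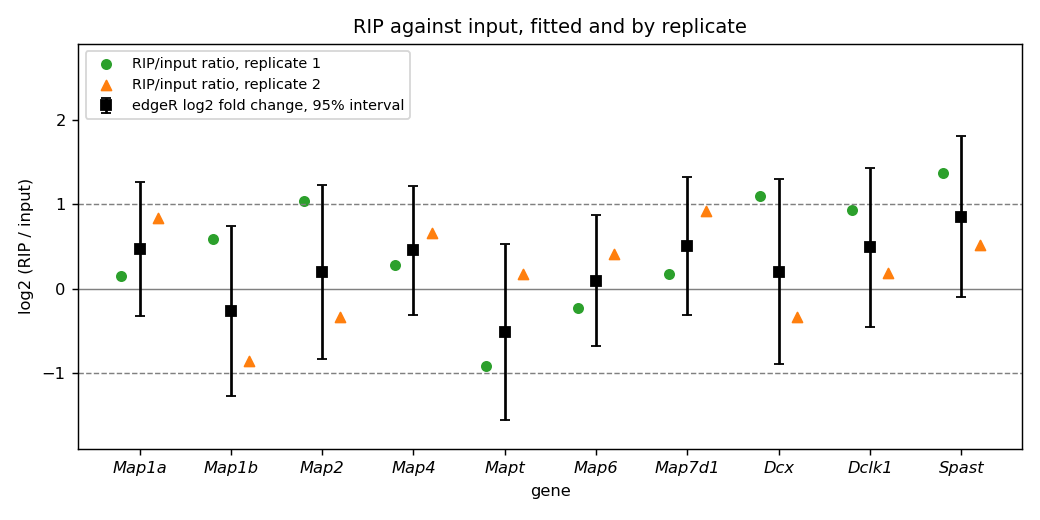
Log2 of RIP over input for the 10 transcripts. Black squares are the edgeR log2 fold change over 2 libraries per group with its 95% interval, green circles and orange triangles the plain ratio within replicates 1 and 2, and dashed lines the limits of -1 and 1. Every interval includes 0, and the ratios of replicates 1 and 2 lie on opposite sides of 0 for 5 genes.

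Compared per transcript length, on the FPKM values that the authors deposited, *Map1b* and *Map7d1* led the inputs, with 3.05 ± 1.99 (SD, n = 2) and 2.98 ± 0.691 FPKM. Both inputs of *Map7d1* were above both of the next, *Mapt*, at 1.46 ± 0.787 FPKM. From *Mapt* downwards, each gene overlapped its neighbour in the order *Spast* (1.21 ± 0.706), *Map4* (1.17 ± 0.117), *Map6* (1.09 ± 0.0696), *Map2* (0.895 ± 0.617), *Map1a* (0.823 ± 0.143), *Dcx* (0.521 ± 0.378) and *Dclk1* (0.318 ± 0.169). In the RIP libraries *Map7d1* stood first, at 5.18 ± 0.829 FPKM, apart from *Map1b* at 3.03 ± 0.896 FPKM. *Spast* followed at 2.56 ± 0.249 FPKM, and *Dcx* and *Dclk1* were again last, at 0.704 ± 0.137 and 0.527 ± 0.0577 FPKM. In such bulk libraries, fewer cells of a type and less RNA per cell cannot be told apart.

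For 9 of the 10 transcripts, all but *Map6*, the inputs lay further apart than the RIP libraries. Between the RIP libraries the 10 transcripts differed by a median of 0.17 on the log2 CPM scale, in either direction, and by at most 0.33 (*Map6*). Between the inputs the median was 1.01 and the range 0.31 (*Map6*) to 1.46 (*Dcx*, 2.75-fold). Across the 6858 tested genes that reached 50 counts in all 4 libraries, the medians were 0.18 between the RIP libraries and 0.52 between the inputs. The direction of the input difference divided the set by base composition. The 5 transcripts with a GC content below 50% (*Dcx*, *Spast*, *Dclk1*, *Map1b* and *Map2*, from 40.6% to 47.8%) were all higher in input replicate 2, by 0.94 to 1.46. The 5 above 50% (*Mapt*, *Map4*, *Map1a*, *Map6* and *Map7d1*, from 52.5% to 62.5%) were all higher in input replicate 1, with differences, replicate 2 minus replicate 1, of -1.33 to -0.31. Over the same 6858 genes, 64.2% of those below 50% GC were higher in input replicate 2, against 13.2% of those above it. The Spearman correlation of GC content with the input difference was -0.57 across 13619 genes, which share the same libraries and are not independent, and that with the RIP difference was 0.0052. The input difference also had a Spearman correlation of 0.32 with log2 transcript length across these genes. The part of each feature was not tested.

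**Figure D3:**
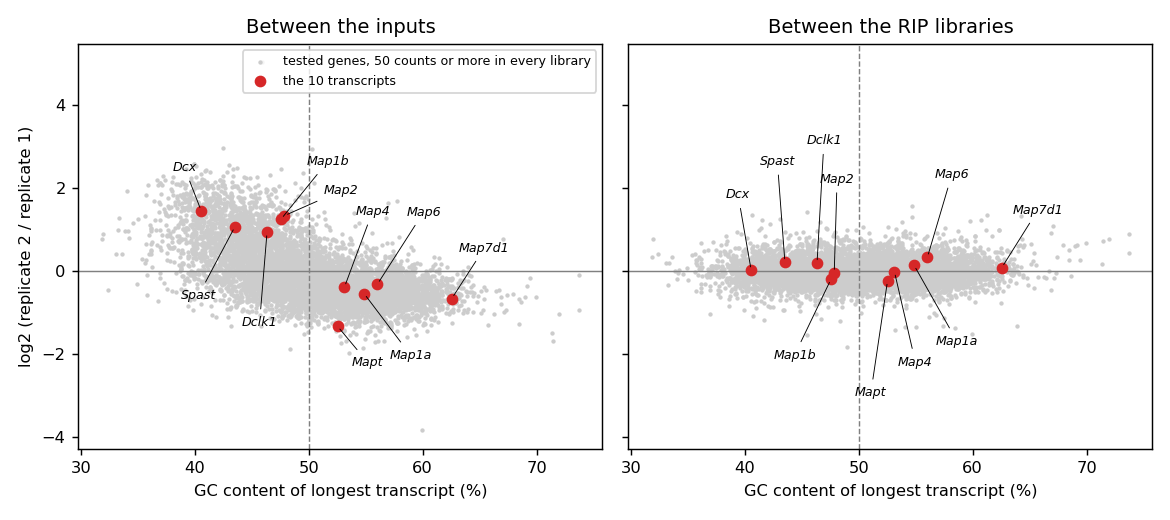
Log2 difference between replicates, replicate 2 over replicate 1, against the GC content in percent of the longest transcript, for the inputs (left) and the RIP libraries (right). Grey dots are the genes that reached 50 counts in all 4 libraries, red dots the 10 transcripts, and the dashed line marks 50% GC. In the inputs the 5 transcripts left of the line are above 0 and the 5 right of it below, while in the RIP libraries all 10 are within 0.33 of 0.

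Ratios of RIP to input taken within each replicate carry the same input differences, since the RIP libraries differed by at most 0.33. They are not a further observation of the split. In replicate 1, the 5 transcripts of lower GC content had log2 ratios of 0.59 (*Map1b*) to 1.37 (*Spast*), and the other 5 had ratios of -0.92 (*Mapt*) to 0.28 (*Map4*). In replicate 2 the sets overlapped, with -0.86 (*Map1b*) to 0.52 (*Spast*) for the former and 0.18 (*Mapt*) to 0.92 (*Map7d1*) for the latter. The sign of the ratio differed between the replicates for 5 of the 10 (*Map1b*, *Map2*, *Mapt*, *Map6* and *Dcx*), against 30% of all tested genes. It was positive in both for *Map1a*, *Map4*, *Map7d1*, *Dclk1* and *Spast*.

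The fold changes differed by the input used, which restates the input differences in another form. Against input replicate 1 alone, the log2 fold changes of *Map2* (1.01), *Dcx* (1.10), *Dclk1* (1.03) and *Spast* (1.48) were above 1, and *Mapt* was at -1.04. Against input replicate 2 alone, *Map2* and *Dcx* were at -0.32 and -0.35, *Dclk1* at 0.09, *Spast* at 0.41 and *Mapt* at 0.30. There, *Map7d1* was at 0.87, *Map1a* at 0.76, *Map4* at 0.66 and *Map1b* at -0.76. Calls against a single input are not given, since no share over all tested genes is set beside them. In these fits the single input was assumed to vary as the RIP libraries do, whereas the 2 inputs differed more than the RIP libraries for 9 of the 10 genes. *Spast*, *Map1a*, *Map4*, *Map7d1* and *Dclk1* stayed above 0 against either input.

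**Figure D4:**
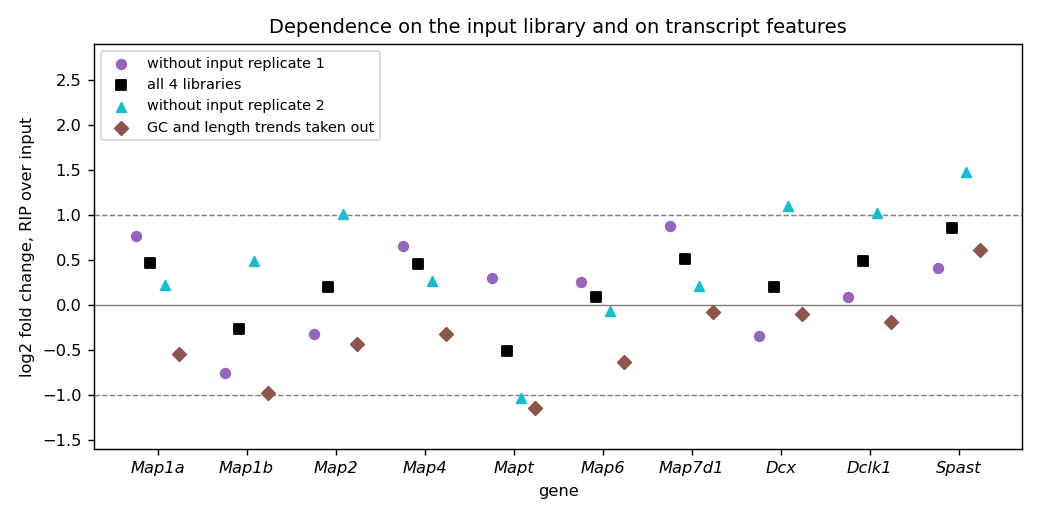
Log2 fold change of RIP over input for the 10 transcripts with all 4 libraries (black squares), without input replicate 1 (purple circles), without input replicate 2 (cyan triangles) and after correction for GC content and length (brown diamonds). Dashed lines mark -1 and 1. Cyan triangles lie beyond a dashed line for 5 genes and no purple circle does, and 9 of the 10 brown diamonds lie below 0.

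The MAP transcripts are long, from 3351 nt (*Map7d1*) to 11825 nt (*Map1a*), and their median of 6174.5 nt compares with 3589 nt over tested protein-coding genes. Longer transcripts had higher fold changes in these libraries, with a Spearman correlation of 0.49 across 13619 genes that share the 4 libraries. The 6410 tested protein-coding genes from 3351 to 11825 nt had a median log2 fold change of 0.34, close to the 0.33 of the 10, and 15% of them were enriched. After smooth trends on GC content and on length had been removed from each library, the median of the 10 was -0.38, against -0.16 over all genes in that fit. *Spast* alone remained above 0, at 0.61 (adjusted p = 0.140). *Mapt* was at -1.15 (unadjusted p = 0.0152, adjusted p = 0.0772), past the limits for depletion, and *Map1b* at -0.99 (adjusted p = 0.0491), short of the fold limit. With the replicate block added to that fit, *Map1b* was at -0.95 with an adjusted p of 0.0808, and no member then had an adjusted p below 0.05. *Map6* was at -0.64 (unadjusted p = 0.0271, adjusted p = 0.110). These p-values are from edgeR's quasi-likelihood test.

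**Figure D5:**
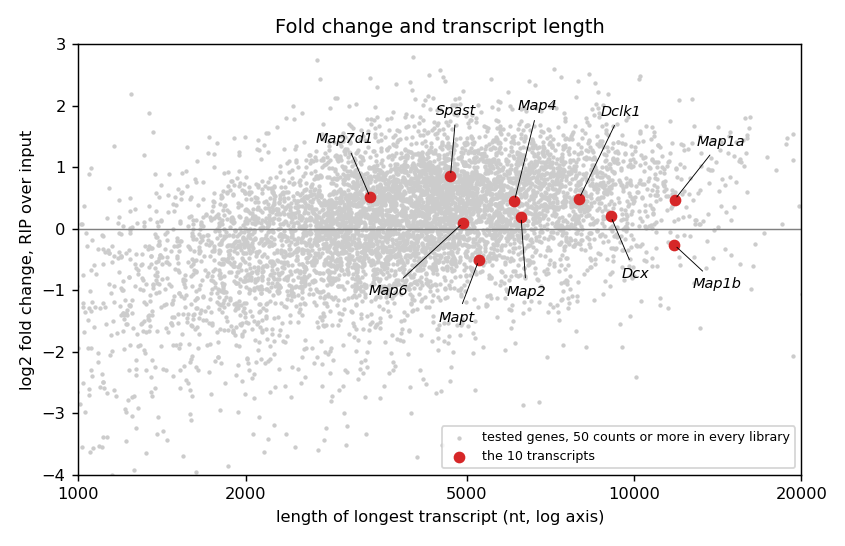
Log2 fold change of RIP over input against the length in nt of the longest transcript, on a log axis. Red dots are the 10 transcripts and grey dots the genes that reached 50 counts in all 4 libraries, of which 309 lie outside the axes. The red dots lie between -0.51 and 0.85, within the grey cloud at their lengths.

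Around the MAPs, 90 further microtubule regulators were listed, of which 80 were tested. At the same limits, 9 of the 80 were enriched (9.43% of all tested genes), 8 were depleted (17.2% of all) and 63 were neither. Their median log2 fold change was 0.07. Counts within the lists that follow have the same shares over all genes, and no list was tested as a set. Among 8 tested genes for kinases that phosphorylate MAPs, the Cdk5 activator *Cdk5r1* counted with them, 3 rose (9.43% of all) and 1 fell (17.2% of all). *Gsk3b*, a main tau kinase, rose most. Its input counts of 554 and 1404 became 4111 and 4021, which is 2.52 on the log2 scale (edgeR adjusted p = 0.0119, standard error 0.474). Without input replicate 2 it was at 3.30, without input replicate 1 at 2.01, and with the trends taken out at 1.89. Its paralog *Gsk3a* had input counts of 852 and 466 and RIP counts of 217 and 201, and fell by 1.21 (unadjusted p = 0.0146, adjusted p = 0.0802). *Cdk5r1*, which encodes p35, rose by 1.53 (adjusted p = 0.0246), and *Mark1*, which phosphorylates the repeats of MAPs, by 1.02 (unadjusted p = 0.0155, adjusted p = 0.0834). *Mark1* was at 0.58 with the trends taken out and *Gsk3a* at -0.68 without input replicate 1, each then short of the fold limit. *Cdk5r1* was at 1.01 with the trends taken out, just past that limit.

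Of 25 genes listed for proteins that bind microtubule ends and for related proteins, 2 rose (9.43% of all tested genes) and 1 fell (17.2% of all). *Clasp1*, which stabilises growing plus ends, rose by 1.58 (edgeR adjusted p = 0.0230), with input counts of 493 and 652 and RIP counts of 1441 and 1060. It was at 0.75 with the trends taken out, short of the fold limit. *Clip3* fell by 2.00 (adjusted p = 0.0214), with input counts of 1926 and 903 and RIP counts of 273 and 246. Without input replicate 1 it was at -1.32. *Nav3* rose by 1.22 at a low level, with input counts of 39 and 56 (adjusted p = 0.0969). Of the 4 stathmins, which sequester tubulin, 2 fell (17.2% of all), a list too small to be set against that share. *Stmn2*, the form of growing axons, fell by 1.59 (adjusted p = 0.0204), with input counts of 1069 and 844 and RIP counts of 237 and 226. *Stmn4* fell from 5.35 ± 0.736 to 1.99 ± 0.822 CPM (SD, n = 2 each, edgeR adjusted p = 0.0669).

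Of 14 severing enzymes and partners of spastin, 2 rose (9.43% of all tested genes) and 1 fell (17.2% of all). *Reep1*, an endoplasmic reticulum shaping protein that, like spastin, is mutated in hereditary spastic paraplegia, rose by 1.66 (edgeR adjusted p = 0.0240), with input counts of 181 and 119 and RIP counts of 331 and 363. *Fignl1*, a relative of spastin, rose by 1.502 (adjusted p = 0.0469), and *Reep2* fell by 1.26 (adjusted p = 0.0791). Among 9 further structural MAPs, *Map10* rose by 1.33 (adjusted p = 0.117) while *Map7d2* and *Tppp3* fell by 2.38 (adjusted p = 0.0700) and 1.66 (adjusted p = 0.0763). *Map7d2*, with 12 and 3 RIP counts, was at -3.55 without RIP replicate 1 and at -1.67 without RIP replicate 2. It was at -2.70 without input replicate 1 and at -1.98 without input replicate 2. Of 4 other genes with doublecortin domains, *Rp1l1* rose by 1.14 (adjusted p = 0.126) and 3 passed neither limit. Of 16 tubulin-modifying enzymes and cofactors, 1 fell (17.2% of all). This was *Svbp*, the partner of the vasohibins, at -1.94 (edgeR adjusted p = 0.0187). It was at -0.56 with the trends taken out. With the trends taken out, *Nav3* (0.42), *Rp1l1* (0.25), *Stmn4* (-0.76) and *Tppp3* (-1.20, unadjusted p = 0.0563, edgeR) missed the limits as well. The shortest of the 17 called transcripts, *Svbp* at 832 nt, *Stmn4* at 1361 nt and *Tppp3* at 1396 nt, fell, and the longest, *Clasp1* at 10265 nt and *Nav3* at 9962 nt, rose. At lengths between these, *Fignl1* (2974 nt) and *Map10* (3542 nt) rose, while *Clip3* (3300 nt), *Stmn2* (3413 nt) and *Map7d2* (3670 nt) fell. The part of length in these calls was not tested. With each library left out in turn, the 17 kept their directions. *Rp1l1*, *Reep2*, *Nav3*, *Stmn4*, *Mark1* and *Gsk3a* fell short of the fold limit in at least 1 of these fits. Calls are not given for them, since each leaves 1 library in a group.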

How the data were processed

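Input and anti-YTHDF2 RIP libraries of P0 retina, 2 of each, were compared. The authors deposited whole-number counts per gene, not normalized, and FPKM values, scaled by the authors for length and library size. The submitters' processing notes name STAR 2.5, HTSeq and GRCm38, and the settings and annotation release are not given in the sources used here. Groups and replicate numbers came from the titles. Counts were fitted over the whole table in R 4.3.3 with edgeR 4.0.16 (filterByExpr with minimum count 10 and minimum total 15, TMM, glmQLFit, glmQLFTest, Benjamini-Hochberg adjustment over all 13632 genes). Enriched and depleted mean a log2 fold change of at least 1, or of -1 or lower, with an unadjusted p below 0.05. Standard errors came from the F statistic.

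The series' design text pairs an input and a RIP library within each replicate. Input and RIP differences between replicates had a Spearman correlation of -0.0364 across 13632 genes (-0.0661 over 6858 with at least 50 counts in every library). Alternatives were DESeq2 1.42.0, other scalings and filters, edgeR's exact test, a replicate block, limma 3.58.1 on log2(FPKM + 0.1) and log2(FPKM + 1), each library left out, and offsets per library from smooth trends on GC content and log2 length of the longest transcript (mgcv 1.9.3, basis size 8). The main fit, the replicate block, the exact test, DESeq2, limma on log2(FPKM + 0.1) and the trends without the block were also run on simulated counts. The other alternatives were not, and the simulated counts held no trend on GC content or length. GENCODE M21 held 52403 of 52550 identifiers.

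The members, gene lists and limits were chosen with earlier results of these data known. All 10 members are named, and, from each list of regulators, called genes with a mean of at least 5 CPM, at most 3 per direction. *Map10*, *Map7d2*, *Tppp3*, *Rp1l1*, *Fignl1*, *Reep2*, *Nav3*, *Stmn4* and *Svbp* fall outside that rule and were named after their values were seen. P-values rest on 2 biological replicates per group and on a spread estimated jointly over genes. Markers of amacrine and horizontal cells (5 of 5), lens (3 of 5), astrocytes (2 of 3), microglia (3 of 3) and red blood cells (2 of 3) were also detected.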

Additional observations from a re-analysis of the deposited data

How the results depend on the processing

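No member was called at the limits under DESeq2, the upper quartile, TMM without small RNA and mitochondrial genes, either filter on counts, the exact test, the replicate block, log2(FPKM + 1) or log2(FPKM + 0.1) without a filter. The cause of each change below was not tested. The share of all tested genes called is given here for the main fit only. The counts of calls under other settings therefore cannot be set against the share in the same setting. With library size alone, where the median of all genes was 0.27 in place of -0.05, 1 member was enriched (*Spast*, 1.14), the median of the 10 was 0.64, and 19 and 5 of the other regulators were enriched and depleted in place of 9 and 8. Limma on log2(FPKM + 0.1) gave 1 enriched member (*Spast*, 1.14) and a median of 0.59, the latter also without a filter, where 4 regulators were depleted. On log2(FPKM + 1) 4 regulators were enriched and 2 depleted. With GC and length trends taken out, 1 member was depleted, 1 had an adjusted p below 0.05, the median was -0.38, and 5 regulators were enriched and 13 depleted. With the trends and the replicate block together, 1 member was depleted and 0 had an adjusted p below 0.05 (1 without the block, *Map1b*). The median was then -0.33, and 5 regulators were enriched and 12 depleted. With the replicate block alone, 0 members were enriched or depleted, *Spast* was at 0.94 (edgeR adjusted p = 0.177), the median was 0.42 and 10 regulators were enriched and 8 depleted, so that the block alone changed no count by over 1.5 times.

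With each library left out in turn, members enriched ran from 0 to 4, members depleted from 0 to 1, members with an adjusted p below 0.05 from 0 to 5, the median from 0.275 to 0.45, regulators enriched from 5 to 19 and regulators depleted from 3 to 14. Without RIP replicate 1, 5 regulators were enriched and 5 depleted, without RIP replicate 2 5 and 3, without input replicate 1 14 and 14, and without input replicate 2 19 and 12. Of 170 values of single members under alternatives, 138 kept sign and call, 9 gained a call and 23 changed sign. *Map1b* was above 0 with library size alone (0.0503), on log2(FPKM + 0.1) with and without a filter (0.12 each) and on log2(FPKM + 1) (0.0674). Over the libraries left out it ran from -0.76 to 0.49, *Map2* from -0.32 to 1.01, *Mapt* from -1.04 to 0.30, *Map6* from -0.0636 to 0.35 and *Dcx* from -0.35 to 1.10, each with the sign changed by leaving out an input. With the trends taken out, *Map1a* was at -0.54, *Map2* at -0.43, *Map4* at -0.33, *Map6* at -0.64, *Map7d1* at -0.0782, *Dcx* at -0.10 and *Dclk1* at -0.19. Adding the block gave -0.51, -0.34, -0.33, -0.65, -0.0777, -0.10 and -0.18 in the same order. At 130 to 2671 counts per library, the counting error of each member was below the difference between its inputs.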
